A study of Mus musculus with 9 samples.

Results

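Notch pathway transcripts were followed in germinal center (GC) B cells with and without floxed Foxo1 alleles: the receptors Notch1 and Notch2, the protease Adam10, the fringe genes Lfng, Mfng and Rfng, the ubiquitin ligase gene Dtx1, the nuclear factors Rbpj and Maml1, and the target Hes1. The 10 genes were listed by symbol, and every probe set that the array's annotation gives to exactly 1 of them was taken, which made 22 probe sets of 34945 with 1 symbol (10 of 18193 genes). In cells without FOXO1, Dtx1 and Hes1 rose, Notch2 rose by a small margin that was lost in 7 of 9 fits without 1 array, and 0 of the 10 genes fell. Cells with 1 floxed allele gave 0 calls, in a comparison that did not call Foxo1 itself either. Adam10, the fringe genes, Rbpj and Maml1 passed no test.

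The cells came from spleens of 10-week-old mice injected with sheep red blood cells on days 0 and 5 and killed on day 12. They were sorted as B220hi, CD95hi and PNAhi from B cell-enriched fractions, and RNA was amplified and hybridised to Affymetrix Mouse 430.2 arrays. The genotypes were FOXO1+/+, Cg1-Cre (WT), FOXO1f/+, Cg1-Cre (HET, 1 floxed allele) and FOXO1f/f, Cg1-Cre (KO, 2 floxed alleles), with 3 arrays each. All groups, controls included, therefore carried Cg1-Cre, a recombinase driven from the immunoglobulin gamma 1 locus that acts in GC B cells, so that deletion starts in the course of the response and depends on Cre having acted in each cell. The labels give 1 animal per array, whereas the series' design text mentions splenic mononuclear cells that were pooled. If arrays do not stand for separate animals, the p-values measure only the spread between these preparations.

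Notch receptors are single-pass membrane proteins that are cut when a ligand on a neighbouring cell binds. Fringe enzymes in the Golgi add a sugar to the receptor and thereby change which ligands bind it. After ligand binding, ADAM10 sheds the outer part, gamma-secretase frees the intracellular part, and that fragment joins RBPJ and a Mastermind protein (MAML) on DNA to switch genes on. Without the fragment, RBPJ binds corepressors. In the spleen, NOTCH2 signalling is known for its role in the making of marginal zone B cells, which receive the ligand DLL1 from stromal cells, and Dtx1, Hes1 and Cr2 are among the genes it is known to induce in B cells.

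The start regions of the genes on which the results turn are shown because RBPJ recognises a short core, TGGGAA, which reads TTCCCA on the other strand, and FOXO factors recognise GTAAACA, or TGTTTAC on the other strand. Windows of 300 bases, from 250 before to 50 after the RefSeq gene start, were taken from a table of RefSeq gene starts on GRCm38.p6 and matched for 8 of the 10 genes. Windows of Hes1 and Mfng were not analysed here. Dtx1 (chr5:120711620-120711919, minus strand) and Notch2 (chr3:98013288-98013587, plus strand) are genes that rose. Cr2 (chr1:195176670-195176969, minus strand) is a further gene that rose, and Lfng (chr5:140607091-140607390, plus strand) one that passed no test. Each is written 5′ to 3′ on the strand of its gene, with matches to the RBPJ core or its extension GTGGGAA, or TTCCCAC on the other strand, in capitals.
Dtx1: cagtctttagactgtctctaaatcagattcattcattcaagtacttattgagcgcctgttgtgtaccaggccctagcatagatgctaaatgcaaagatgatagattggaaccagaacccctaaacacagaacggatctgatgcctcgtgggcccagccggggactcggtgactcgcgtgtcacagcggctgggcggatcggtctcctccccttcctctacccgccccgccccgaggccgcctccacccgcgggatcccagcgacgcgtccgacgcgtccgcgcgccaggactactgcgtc
Notch2: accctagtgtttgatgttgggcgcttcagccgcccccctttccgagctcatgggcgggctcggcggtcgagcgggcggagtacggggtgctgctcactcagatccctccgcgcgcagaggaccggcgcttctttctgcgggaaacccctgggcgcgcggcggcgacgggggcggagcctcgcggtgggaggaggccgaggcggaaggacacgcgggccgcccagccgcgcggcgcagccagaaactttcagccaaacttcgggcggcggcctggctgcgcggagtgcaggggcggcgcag
Cr2: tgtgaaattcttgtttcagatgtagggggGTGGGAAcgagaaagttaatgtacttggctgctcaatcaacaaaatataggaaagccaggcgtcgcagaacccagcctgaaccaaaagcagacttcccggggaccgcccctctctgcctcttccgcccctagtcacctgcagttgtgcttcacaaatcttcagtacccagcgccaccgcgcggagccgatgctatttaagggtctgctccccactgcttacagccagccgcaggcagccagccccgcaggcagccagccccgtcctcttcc
Lfng: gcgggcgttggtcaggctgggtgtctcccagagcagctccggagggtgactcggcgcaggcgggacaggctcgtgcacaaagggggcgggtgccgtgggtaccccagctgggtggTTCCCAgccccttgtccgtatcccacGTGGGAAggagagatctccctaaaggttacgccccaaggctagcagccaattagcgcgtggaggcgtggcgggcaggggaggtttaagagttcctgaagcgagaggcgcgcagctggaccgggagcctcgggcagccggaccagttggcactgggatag

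Both strands were searched. The Dtx1 and Notch2 windows held no match to any of these motifs. The Cr2 window held 1 core, which begins at position -220 from the start and is also the extended form (from -221). Lfng held 2 cores, at -135 on the opposite strand and at -108 on its own strand, and the latter is the extended form. Among the windows not printed, cores were also matched in Rbpj and in 1 window each of Psen2 (the extended form), Nedd4 and Cdkn1a. No core was matched in the windows of Notch1, Rfng, Adam10, Maml1, Neurl3, Tle3, Sap30 or Nrarp. Of all 32817 windows of this length, 25.6% held a core, 6.39% the extended form, which contains the core, and 3.65% the FOXO motif. The FOXO motif was matched in none of the windows of the 8 members or of the 8 other pathway genes called below. A match is a run of letters and not a shown binding site, and these windows leave out enhancers.

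Signals are MAS5 values, brightness per probe set after each array was scaled to the same trimmed mean of 500, and levels of different probe sets are not set against each other. Differences between groups are differences of mean log2(signal + 2.09), so a difference of 1 is a doubling. They were tested with limma over the 23344 probe sets whose signal was no lower than the array median on 3 or more of 9 arrays. A call is a Benjamini-Hochberg adjusted p under 0.05 over all of them, and 95% intervals are given unadjusted. The array medians lay between 42.9 and 45.0 in WT and HET and between 47.4 and 48.0 in KO. Of the 22 member probe sets, 19 passed this filter. The other 3, 1 each for Lfng, Rfng and Maml1, were not tested, and each gene has a brighter probe set that was.

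The brightest Foxo1 probe set (1416983_s_at) gave signals of 5432, 5300 and 5616 in WT, 3633, 3581 and 3479 in HET and 983, 1392 and 727 in KO, in the order of the labels. The groups did not overlap, and KO lay below WT by a log2 difference of -2.45 (SE 0.16, limma adjusted p = 3.09e-06). Of 4 Foxo1 probe sets, 3 were lower in KO. Correlations of log2 signals lay between 0.978 and 0.989 within groups and between 0.970 and 0.987 across groups. The summed signal of 4 B cell markers overlapped between the groups (WT 28624 to 30999, HET 29083 to 29895, KO 28572 to 29930), as did the log2 ratio of 3′ to 5′ Actb control signals, which was 1.09 to 1.26 over all 9 arrays.

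In KO against WT, 4 of 19 member probe sets (21.1%) were higher and 0 lower, while 3.96% of all tested probe sets were higher and 3.69% lower (7.65% called). The 4 belong to 3 genes, and without WT replicate 1, WT replicate 2 or KO replicate 2 the count was 2. Taking the brightest probe set per gene, 3 of 10 members were higher and 0 lower, against 4.79% and 4.91% of 10331 genes. The members were chosen with earlier results of these data known, so these shares are a description only. The median log2 difference was 0.01 over the member probe sets and 0.03 over all tested ones. In the same 4 probe sets all KO arrays lay above all WT arrays, and 15.4% of all tested probe sets did so. The remaining 15 had log2 differences between -0.26 and 0.25 and adjusted p-values of 0.430 or more. HET against WT gave 0 calls among the 19 (limma, 0 also at an unadjusted p under 0.05), with 0.00428% of all tested probe sets called. Foxo1 itself was not called in that comparison, so 0 calls there do not show unchanged levels. KO against HET gave 3 higher and 0 lower (limma, 5 at an unadjusted p under 0.05), with 2.78% of all probe sets called higher, 2.79% lower and 5.58% in all. By the brightest probe set these were again 3 of 10 genes, against 3.45% of all genes higher and 3.7% lower. All KO arrays lay above all HET arrays in 4 of the 19, and in 13.7% of all tested probe sets. KO is shared by the comparisons with WT and HET, so these are not independent.

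**Figure D1:**
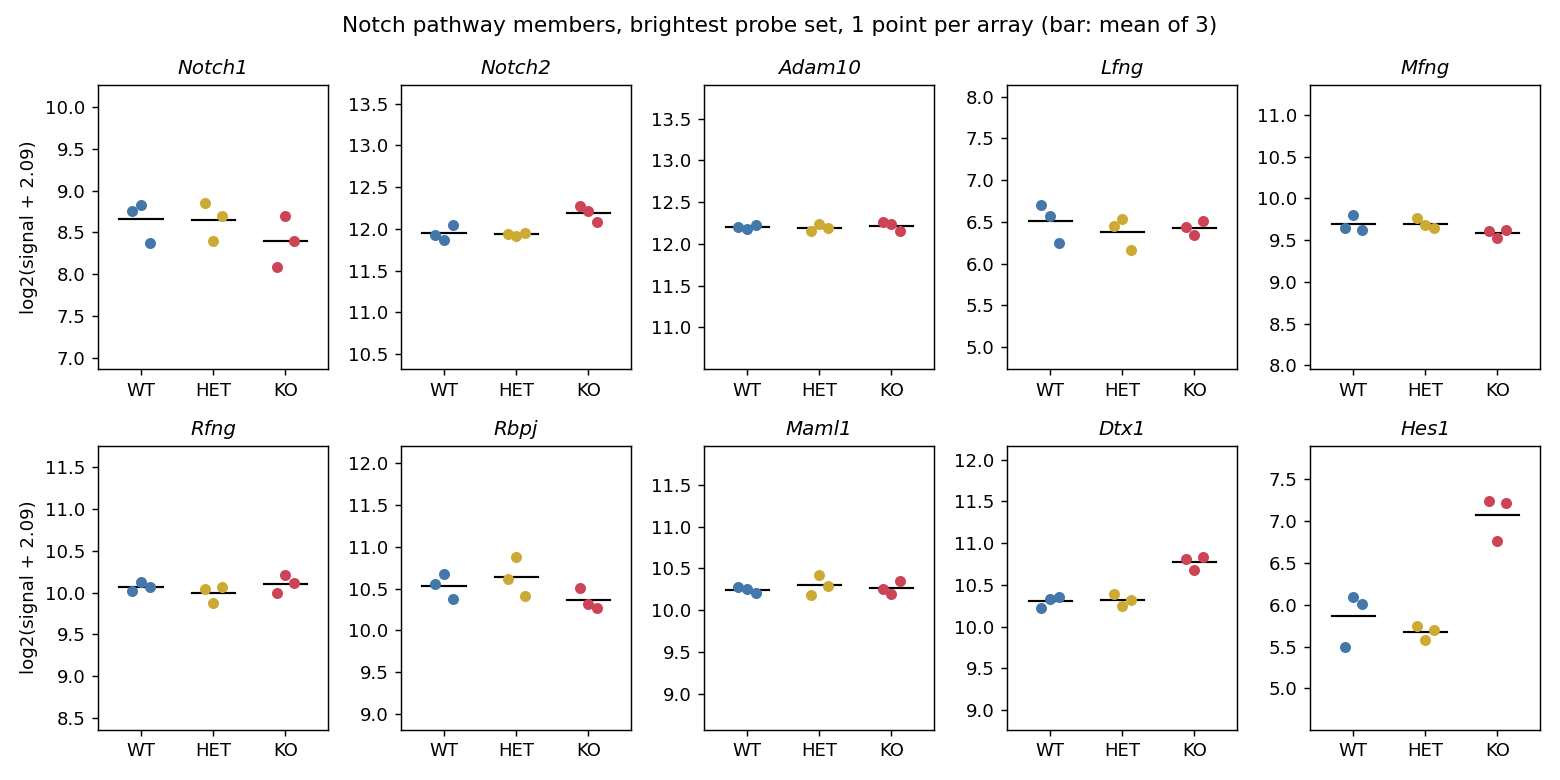
Level of the brightest probe set of each of the 10 genes as log2(signal + 2.09), with 1 point per array and a bar at the mean of the 3 arrays of WT, HET and KO; panels have their own range. For Notch2, Dtx1 and Hes1 the 3 KO points lie above all WT and HET points, and for Mfng all 3 lie below them.

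Of the receptors, Notch2 rose and Notch1 did not pass the test. Notch2 (1455556_at) had signals of 3903, 3717 and 4221 in WT, 3928, 3847 and 3950 in HET and 4964, 4753 and 4329 in KO. All KO arrays lay above all others, although the lowest KO array exceeded the highest WT array by little. The means were 3947 ± 255, 3908 ± 54.2 and 4682 ± 324 (SD, n = 3), a log2 difference of 0.25 for KO minus WT (SE 0.07, 95% interval 0.10 to 0.39, limma adjusted p = 0.0394), or 1.19-fold. Against HET it was 0.26 (adjusted p = 0.0387). The HET minus WT value was -0.01 (interval -0.15 to 0.13).

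The Notch2 call rests on a narrow margin. Without any 1 of WT replicates 1 and 2, KO replicates 1 and 2 and HET replicates 1, 2 and 3, its adjusted p for KO against WT was 0.0534 to 0.159, with log2 differences of 0.20 to 0.25. The call against HET was lost in 6 of 9 such fits (adjusted p of up to 0.127), and with the Xist level as a block it was 0.23 (adjusted p = 0.0649). With each array centred on its median in place of the MAS5 scaling, the difference fell to 0.13 (adjusted p = 0.280) while the median of all tested probe sets moved from 0.03 to -0.09. A dim second Notch2 probe set (1451889_at) read 42.8, 71.3 and 31.4 in WT, 34.6, 36.8 and 45.1 in HET and 69.5, 42.5 and 48.3 in KO. These ranges overlap and the values sit about the array medians, and its KO minus WT difference was 0.18 (interval -0.52 to 0.88, adjusted p = 0.799).

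Notch1, the receptor best known in T cell development, read 432, 452 and 330 in WT, 461, 334 and 413 in HET and 269, 413 and 335 in KO at its brighter probe set (1418634_at). The 3 groups overlap. The KO mean differed from WT by -0.26 (95% interval -0.65 to 0.13, limma adjusted p = 0.430), so a fall of up to 0.65 or a rise of up to 0.13 on the log2 scale lies within the interval. The dimmer probe set (1418633_at) gave 0.00 (interval -0.65 to 0.65).

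The cleavage and fringe genes gave 0 calls. Adam10, which encodes the protease of the first cut, was the most tightly measured member: its brightest probe set (1428103_at) read 4725, 4630 and 4783 in WT, 4564, 4817 and 4657 in HET and 4893, 4821 and 4561 in KO. The KO minus WT difference was 0.01 (95% interval -0.10 to 0.12, limma adjusted p = 0.909), and 3 other Adam10 probe sets gave -0.11, -0.05 and 0.15. All KO arrays of Mfng (1416992_at), the manic fringe gene, were below the rest: 801, 893 and 787 in WT, 868, 822 and 797 in HET and 782, 732 and 785 in KO. The nearest WT and KO arrays read 787 and 785, and the mean difference was -0.11 (interval -0.30 to 0.08, adjusted p = 0.513). Of the 19 member probe sets, 1 had all KO arrays below all WT arrays, and the share over all probe sets was not analysed here.

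Lfng, which encodes lunatic fringe, was dim, with 102, 93.4 and 73.9 in WT, 85.4, 90.4 and 69.6 in HET and 84.6, 78.8 and 89.0 in KO (1420643_at). The groups overlap, and KO minus WT was -0.08 (95% interval -0.52 to 0.36, limma adjusted p = 0.857). Its untested probe set (1449943_at) read at most 7.85 on any array. Rfng, the radical fringe gene, read 1038, 1117 and 1073 in WT, 1055, 941 and 1073 in HET and 1022, 1182 and 1108 in KO (1460704_at), with KO minus WT at 0.03 (interval -0.15 to 0.22, adjusted p = 0.861).

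The nuclear complex gave 0 calls as well. Rbpj, the DNA-binding factor of the pathway, read 1501, 1627 and 1331 in WT, 1564, 1876 and 1363 in HET and 1456, 1269 and 1232 in KO (1454896_at). The ranges overlap throughout. The difference from WT was -0.17 in KO (95% interval -0.43 to 0.09, limma adjusted p = 0.433) and KO minus HET -0.27 (unadjusted p = 0.0407, adjusted p = 0.220). Its other probe sets differ in sign for KO minus WT, at -0.17 (1448957_at) and 0.25 (1418114_at), and neither passed. Maml1, which encodes a Mastermind coactivator, read 1239, 1216 and 1175 in WT, 1163, 1370 and 1249 in HET and 1217, 1171 and 1297 in KO (1426769_s_at), a KO minus WT difference of 0.02 (interval -0.16 to 0.20, adjusted p = 0.914). Its second tested probe set gave -0.04.

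Dtx1, which encodes the ubiquitin ligase Deltex1 and is itself a Notch target, was the member with the lowest adjusted p. Signals of 1425822_a_at were 1195, 1290 and 1309 in WT, 1336, 1218 and 1277 in HET and 1797, 1632 and 1821 in KO. The WT and HET arrays fall in the same range, and all KO arrays lie well above it. Means were 1265 ± 61.2, 1277 ± 59.2 and 1750 ± 103 (SD, n = 3). In KO the log2 level exceeded WT by 0.47 (SE 0.08, 95% interval 0.30 to 0.63, limma adjusted p = 0.00304), or 1.38-fold, and KO minus HET 0.45 (adjusted p = 0.00466). HET minus WT was 0.01 (interval -0.15 to 0.18).

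A dimmer Dtx1 probe set (1458643_at) moved the same way, from 218, 260 and 235 in WT and 214, 285 and 301 in HET to 321, 398 and 378 in KO. Its KO minus WT difference was 0.62 (SE 0.15, limma adjusted p = 0.0304), but KO minus HET, at 0.46, did not pass (adjusted p = 0.110). The call against WT was lost without any 1 of the 3 WT arrays or KO replicates 2 and 3 (adjusted p 0.0577 to 0.108). The call of 1425822_a_at held in all 9 fits that left out 1 array, with an adjusted p of 0.0157 or less.

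Hes1, a transcriptional repressor and a classical Notch target, had the largest difference of the members. It read 42.9, 66.0 and 62.3 in WT, 51.8, 45.5 and 49.8 in HET and 149, 107 and 147 in KO (1418102_at). The WT and HET signals sit near the array median, with 1 WT array below it, and the 3 KO arrays stand clear of them. KO minus WT was 1.21 (SE 0.23, 95% interval 0.70 to 1.72, limma adjusted p = 0.00785), or 2.32-fold on the scale of signal + 2.09. KO minus HET was 1.40 (adjusted p = 0.00421), or 2.64-fold, and HET minus WT -0.19 (interval -0.70 to 0.32). Both calls held in all 9 fits without 1 array. In sorted cells measured in bulk, more RNA per cell and more cells that hold the RNA cannot be told apart, here and for the other genes.

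**Figure D2:**
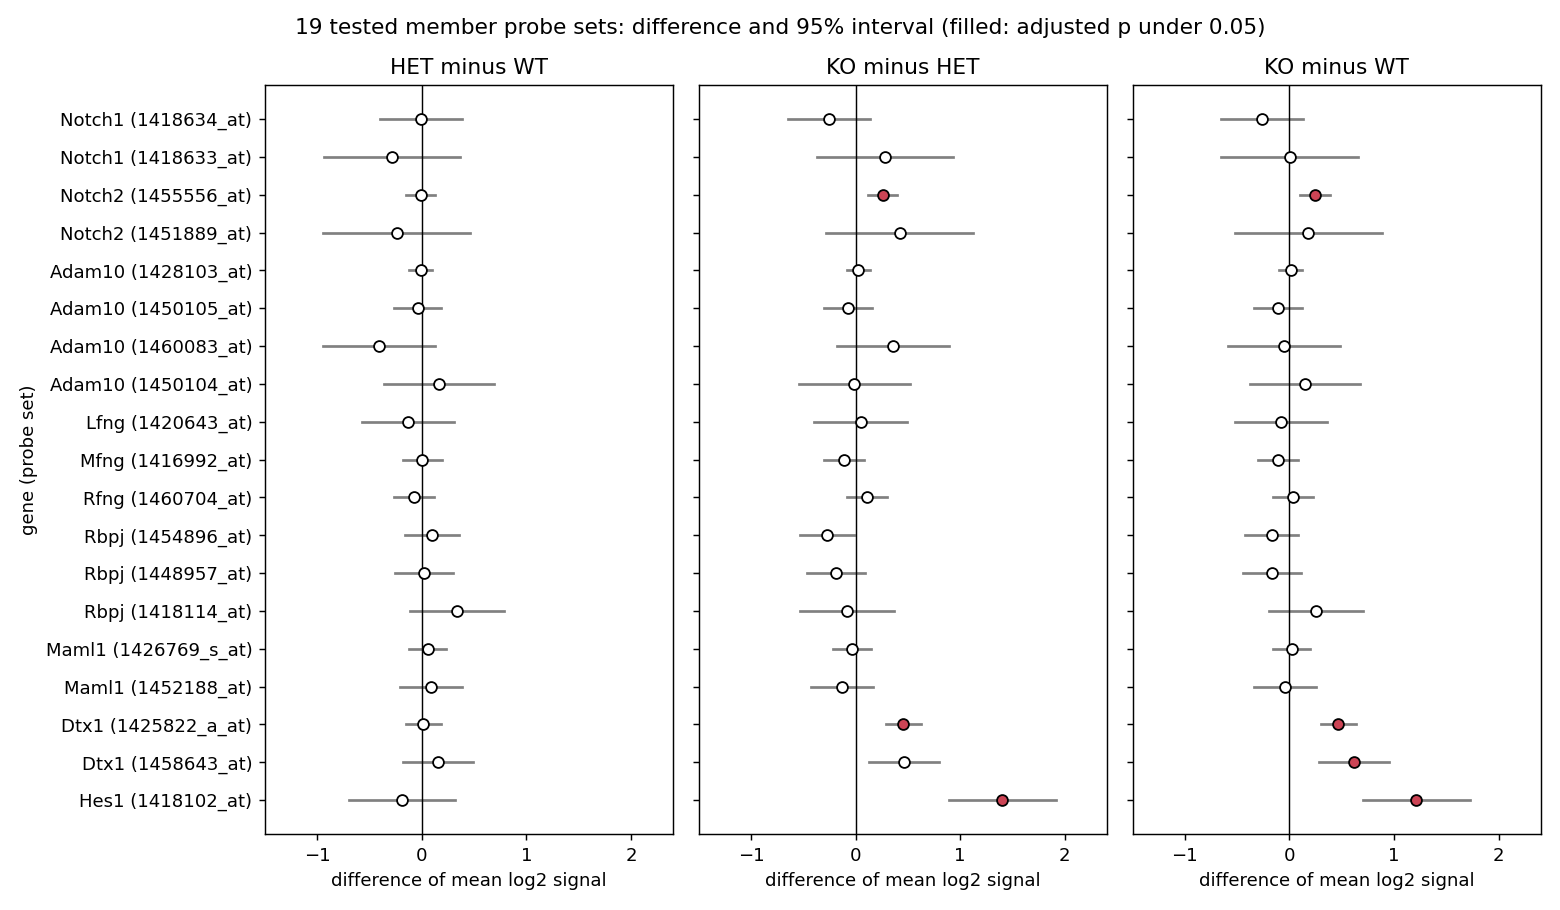
Differences of mean log2 signal for the 19 tested member probe sets in HET minus WT, KO minus HET and KO minus WT; bars are 95% intervals from limma over 3 arrays per group, and filled points have an adjusted p under 0.05. All 19 intervals of HET minus WT span 0, whereas those of Notch2 1455556_at, Dtx1 and Hes1 lie to the right of it in both comparisons with KO. The intervals of the dim Notch2 1451889_at span 0 there too.

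Whether HET cells sat midway between WT and KO was tested by setting HET against the mean of the WT and KO means. Hes1 lay below the midpoint by a log2 value of -0.80 (limma unadjusted p = 0.00199, adjusted p = 0.155), Dtx1 1425822_a_at by -0.22 (unadjusted p = 0.00628, adjusted p = 0.263) and Notch2 1455556_at by -0.14 (unadjusted p = 0.0333, adjusted p = 0.496). In all 3 the HET mean lay nearer WT than KO, but 0 of 19 member probe sets passed the adjusted threshold (0.523% of all tested probe sets and 0.678% of all genes did, and 3 member probe sets had an unadjusted p under 0.05). The 3 were also called higher in KO, and the same KO arrays set the midpoint. Their place below it is therefore not independent of those calls.

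By mean absolute difference of centred log2 signals over the 9 arrays, the genes with a profile most like that of Dtx1 among 10330 were Ap1s2 (0.03), Emid1 (0.05), Mbd1 (0.05), Arid3b (0.06) and Ets2 (0.06), where the median over all genes was 0.23. Of the members, Notch2 came at rank 152 (0.10), and Hes1, whose difference was larger, at rank 9322 (0.38). The likeness therefore also reflects the size of the difference and is a description only.

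The rest of the pathway was taken from lists by role, holding 83 genes of which 76 were on the array and 55 were tested. These lists too were chosen with earlier results of these data known, so their shares are a description only. In KO against WT, 6 rose, 2 fell and 47 did not pass. The called share was 14.5%, beside 9.7% of all 10331 genes, and the median log2 difference was 0.08, beside 0.01. HET against WT gave 0 calls of 55 (0.00968% of all genes were called). KO against HET gave 5 higher and 1 lower, or 10.9% called against 7.14% of all genes. Psen2 and Sap30, called against WT, did not pass against HET.

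**Figure D3:**
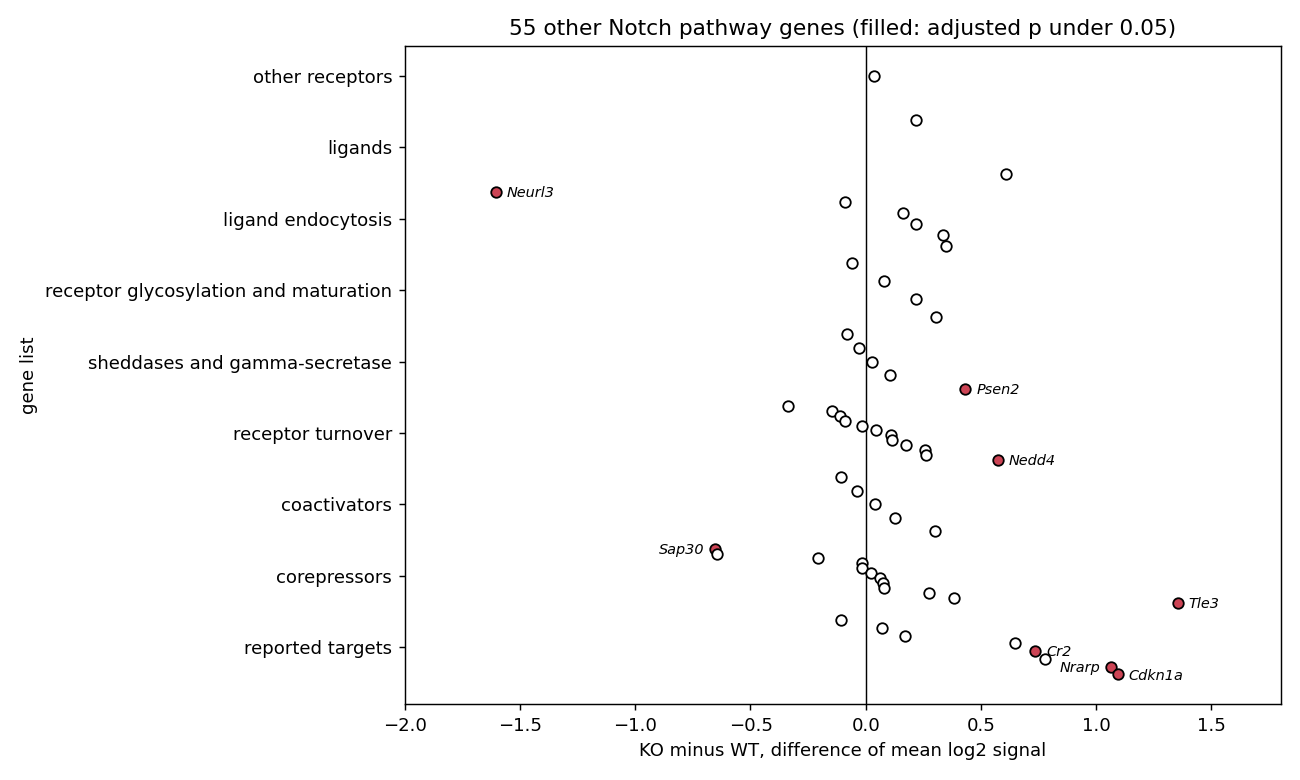
KO minus WT difference of mean log2 signal for the 55 other pathway genes tested, 1 point per gene (brightest probe set), by role; filled points have an adjusted p under 0.05 and are named. The 3 called target genes lie to the right of 0, and most other points lie near it.

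Among other reported targets, 3 of 8 tested rose and 0 fell, with a median log2 difference of 0.69, beside 4.79% higher, 4.91% lower and a median of 0.01 over all genes. Because the list was chosen with earlier results of these data known, this contrast is a description only. Cr2, which encodes the complement receptor CD21 of marginal zone and follicular B cells, read 2858, 3015 and 2748 in WT, 3184, 3450 and 2936 in HET and 5105, 4524 and 4740 in KO. The KO arrays stand apart, and KO minus WT was 0.74 (SE 0.07, limma adjusted p = 6.55e-05). Nrarp, a feedback inhibitor of Notch, read 116, 90.0 and 120 in WT, 133, 109 and 99.9 in HET and 214, 175 and 314 in KO. The KO mean exceeded WT by 1.07 (SE 0.22, adjusted p = 0.0127). Without WT replicate 2 its adjusted p was 0.0609, with a difference of 0.94.

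Cdkn1a, the gene of the cell cycle inhibitor p21, is induced by several routes other than Notch. It read 176, 166 and 191 in WT, 237, 142 and 192 in HET and 337, 296 and 557 in KO, with KO minus WT at 1.09 (SE 0.23, limma adjusted p = 0.0144, and 0.0599 without WT replicate 2). A second, dimmer probe set gave 1.05 (adjusted p = 0.148). The targets that did not pass included Hes5 at 0.78 (adjusted p = 0.0901), Bcl2 at 0.65 (adjusted p = 0.0937) and Myc at 0.17 (adjusted p = 0.354).

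Of 12 tested corepressor genes, Tle3 rose and Sap30 fell (16.7% called, beside 9.7% of all genes). Tle3, a Groucho-type corepressor that Hes proteins and other factors recruit, had the lowest adjusted p of the pathway. It read 1633, 1587 and 1359 in WT, 1984, 1700 and 1632 in HET and 4257, 3674 and 3774 in KO, a KO minus WT difference of 1.35 (SE 0.10, limma adjusted p = 4.51e-06). The HET mean lay below the midpoint of WT and KO by -0.46 (adjusted p = 0.0309). That call was lost without any 1 of WT replicates 1 and 2, KO replicate 1 and HET replicates 2 and 3 (limma adjusted p 0.0509 to 0.171). Sap30, which encodes a subunit of the SIN3 histone deacetylase complex, read 763, 738 and 632 in WT, 566, 659 and 592 in HET and 399, 424 and 538 in KO, a KO minus WT difference of -0.65 (SE 0.13, adjusted p = 0.00869). For Sap30, KO minus HET was -0.43 and did not pass (limma adjusted p = 0.0781).

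Of 12 receptor turnover genes, Nedd4 alone was called in KO against WT (8.33%, beside 9.7% of all genes). Nedd4, a ubiquitin ligase gene, rose from 703, 714 and 691 in WT and 798, 690 and 773 in HET to 1080, 1056 and 1004 in KO. This was a log2 difference of 0.57 (SE 0.09, limma adjusted p = 0.00159). Dimmer Nedd4 probe sets gave 0.45 (1451109_a_at, adjusted p = 0.00917) and 0.37 (1421955_a_at, adjusted p = 0.154), and the latter did not pass. Of 5 tested genes of the sheddases and gamma-secretase, Psen2 alone was called (20%, beside 9.7% of all genes). Psen2, a catalytic presenilin, read 701, 961 and 926 in WT, 1104, 943 and 992 in HET and 1135, 1110 and 1218 in KO. Its KO minus WT difference of 0.43 (SE 0.12, adjusted p = 0.0442) lost the call in 7 of 9 fits without 1 array (WT replicates 1 and 3, each KO replicate, HET replicates 2 and 3), with an adjusted p of up to 0.117. For Psen2, KO minus HET was 0.19 and did not pass (limma adjusted p = 0.394), and HET minus WT was 0.24 (interval -0.01 to 0.50).

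Neurl3, a Neuralized-family ubiquitin ligase gene listed with ligand endocytosis, was the 1 of 6 in that list to fall (16.7% called, beside 9.7% of all genes). It read 137, 138 and 137 in WT, 183, 120 and 83.2 in HET and 54.6, 30.5 and 50.1 in KO, and 1 KO array lay below its median. KO minus WT was -1.60 (SE 0.29, limma adjusted p = 0.00510). The HET arrays spread more widely than either other group.

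Ligands, other receptors, receptor glycosylation and coactivators gave 0 calls. Of 8 ligand genes only Jag2 and Dll1 were tested, with KO minus WT values of 0.61 (limma adjusted p = 0.184) and 0.22 (adjusted p = 0.676). Notch ligands act on B cells from the surface of other cells. Notch4 gave 0.04 (adjusted p = 0.965) and Notch3 did not pass the filter. Poglut1, an enzyme that adds glucose to Notch, gave 0.30 (adjusted p = 0.216), and Kat2a, a histone acetyltransferase gene, 0.30 (adjusted p = 0.129).

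**Figure D4:**
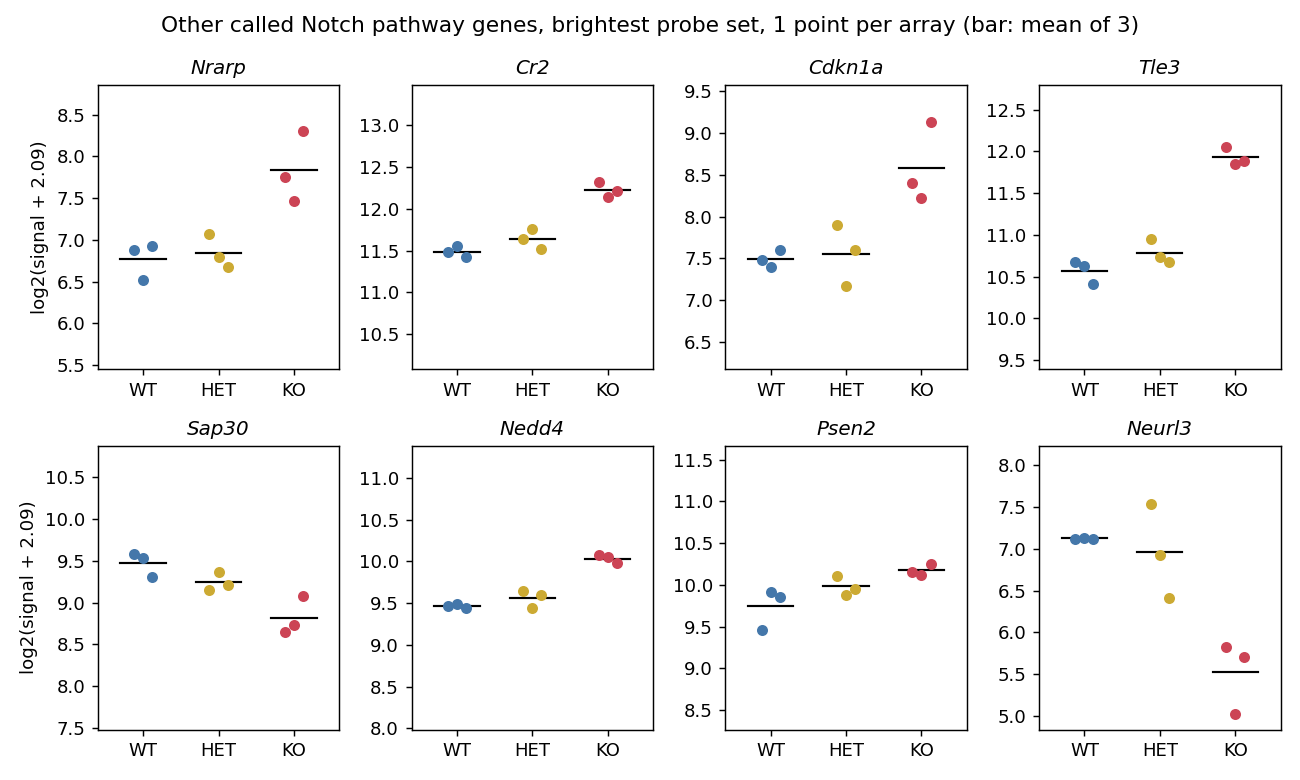
Levels of the 8 other pathway genes called in KO against WT, as log2(signal + 2.09) of the brightest probe set, with 1 point per array and a bar at the mean of 3; panels have their own range. The 3 KO points lie above all WT points for 6 genes and below them for Sap30 and Neurl3.

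Some markers of other cells moved with genotype beside these genes, while T cell, stromal and endothelial markers gave 0 calls. The counts below are for KO against WT, where 4.79% of all genes were higher and 9.7% were called. The summed signal of 5 marginal zone B cell markers, Cr2 among them, was 6262 to 6352 in WT, 6238 to 7016 in HET and 10169 to 12314 in KO, and 4 of the 5 rose. Plasma cell markers summed to 16910 to 17246, 15938 to 17356 and 17412 to 19719, with 3 of 5 tested genes higher and the defining receptor gene Tnfrsf17 below the array median throughout. Myeloid markers summed to 506 to 981 in WT, 656 to 1452 in HET and 1082 to 1401 in KO. Of these, 2 of 6 tested rose and 0 were called lower, although the lowest log2 difference was -1.08. Itgam, Cd14 and Fcgr3 were below the median on all arrays.

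Dendritic cell markers summed to 1178 to 1372 in WT, 1477 to 1527 in HET and 1464 to 1825 in KO, with 1 of 3 tested genes higher in KO than WT. Stromal and endothelial sums were 310 to 436, 358 to 587 and 435 to 504, with 0 of 2 called. T cell markers summed to 56.5 to 201 over all arrays, and Cd3d, Cd3g, Cd4 and Cd28 were below the median on every array. The 5 GC B cell markers on the array summed to 27700 to 31588 in WT, 28590 to 30450 in HET and 27284 to 28082 in KO. Of these, Fas rose by 0.30 (limma adjusted p = 0.0215), Gcsam, a regulator of GC B cell motility, differed by -1.36 (adjusted p = 2.95e-05), and Bcl6, Mki67 and S1pr2 did not pass. The part of marginal zone, plasma, myeloid or dendritic cells in the rise of Notch2, Dtx1, Hes1 and the other targets was not tested.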

How the data were processed

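Transcripts were measured on 9 arrays, 3 per genotype (WT, HET, KO). The deposited table gives 1 linear intensity (signal) per probe set and array. The authors used MAS5, per the submitters' processing notes, and its version is not given in the sources used here. Every array had the same mean signal, 500, once the top and bottom 2% were trimmed. Precision is limited by the number of arrays.

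Of 45101 probe sets, 64 controls were left out. The platform annotation gave 1 symbol to 34945, several to 932 and none to 9160. Of the first, 34741 matched RefSeq genes of GRCm38.p6 by Entrez identifier. Values were log2(signal + 2.09), the offset being the 10th percentile of all signals, so fold changes of dim genes are understated. Probe sets reaching their array's median in at least 3 arrays were kept (23344). One model over all 9 arrays was fitted with limma 3.58.1 (eBayes with trend, R 4.3.3), two-sided, with Benjamini-Hochberg adjustment and a threshold of 0.05. It was tested on simulated data. Genes were counted by their brightest kept probe set.

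Arrays were numbered in order of deposition within genotypes, and no numbers pair them. Batch, litter and sex are not given in the sources used here. Xist level split the arrays into high and low, with 2 of 3 high in WT, 1 of 3 in HET and 2 of 3 in KO. Members and lists were chosen with earlier results of these data known. Named were all members, Foxo1, up to 4 called genes per pathway list by adjusted p (where none, the 1 lowest), and the 5 genes most like the member with the lowest adjusted p. Dll1, Notch3, Hes5, Bcl2, Myc, Fas and Gcsam were named after their values were seen. Some listed genes were not analysed here. Alternatives changed the offset, scaling, filter, model and probe set rule, blocked on Xist level, or left out 1 array.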

Additional observations from a re-analysis of the deposited data

How the results depend on the processing

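Across 9 fits that each left out 1 array and up to 14 other settings, no result changed its direction past the threshold. The number of member probe sets called in KO vs WT, 4 in the reported fit, was 2 with arrays centred on their medians and 2 with eBayes without trend. It was 2 to 3 with 1 array left out (2 without WT replicate 1, WT replicate 2 or KO replicate 2). With a gene's probe sets averaged, 2 member genes were called, beside 3 genes in the reported fit. The number of other pathway genes called in KO vs WT, 8 in the reported fit, was 13 with a gene's probe sets averaged, 5 without probe sets of shared suffix, and 6 to 8 with 1 array left out. HET vs WT kept 0 member calls in every setting run, and KO vs HET kept 2 or 3. Hes1 and Dtx1 1425822_a_at kept their KO vs WT calls in every setting in which they could be fitted. Notch2 1455556_at lost its KO vs WT call in 5 of 14 other settings: arrays centred on their medians, no filter (adjusted p = 0.0734), eBayes without trend (0.129), only the groups compared (0.0751) and a gene's probe sets averaged (0.352). Its KO vs HET call was lost with arrays centred on their medians (0.190), no filter (0.0714), eBayes without trend (0.131), a gene's probe sets averaged (0.154) and the Xist block (0.0649). The probe set Dtx1 1458643_at lost its call with quantile normalization (adjusted p = 0.0599), with arrays centred on their medians (0.0529) and with eBayes without trend (0.0532). Centring on array medians changed the share of KO vs WT calls over all probe sets that were higher from 51.8% to 20.7%. The number of all probe sets called, 1785, became 2953 with that centring. It was 976 without WT replicate 3, 982 without WT replicate 2 and 1158 without KO replicate 2. With a gene's probe sets averaged, 1185 genes were called, a count of genes and not of probe sets. By the brightest probe set, 1002 of 10331 genes were called in the reported fit. Those of KO vs HET, 1302, became 825 with eBayes without trend and 697 without HET replicate 2, 801 without KO replicate 2 and 839 without HET replicate 3. The 122 calls of the departure of HET from the midpoint became 43 with eBayes without trend and as few as 49 with 1 array left out (HET replicate 2), and the single call of HET vs WT became 5 with only the groups compared. The cause of these shifts was not tested. Genes near the array median, Hes1 in WT among them, have signals close to background, so their folds are the least certain. No paired analysis was possible because the genotypes share no replicate number in the labels.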
